A study of Mus musculus with 80 samples.

Results

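The 8 genes described here mark how a neuron signals with glutamate, GABA or glycine: the vesicular glutamate transporter genes Slc17a6, Slc17a7 and Slc17a8, the GABA synthesis genes Gad1 and Gad2, the vesicular inhibitory transmitter transporter gene Slc32a1, the glial GABA transporter gene Slc6a11 and the neuronal glycine transporter gene Slc6a5. They were chosen by name, and all 8 were found among the 27179 genes of the count table. RNA-seq measured them in the hypothalamus, cerebellum, hippocampus, neocortex and amygdala of 8 virgin (V) and 8 primiparous (P) C57BL/6 females, an inbred laboratory strain (substrain C57BL/6J per the study's methods). Primiparous females had been housed with a male from 8 weeks of age for 2 weeks and had raised their young to weaning. Their tissue was taken 3 weeks after weaning per the labels, although the study's methods place the harvest later. Virgin females were age-matched, born within 3 days of the others and kept in the same room. No transgene, deletion or drug was used. A library holds RNA of a single animal and region. Per the study's methods the entire hypothalamus was used, but only the left side of the other regions. The count table holds 77 of the 80 libraries: 8 V and 8 P in the hypothalamus and neocortex, and 7 V and 8 P in the other regions.

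Neurons load glutamate into synaptic vesicles with a vesicular glutamate transporter, and the gene that a neuron uses differs by brain region: Slc17a7 (VGLUT1) in most cortical, hippocampal and cerebellar granule neurons, Slc17a6 (VGLUT2) in most subcortical neurons, and Slc17a8 (VGLUT3) in small scattered groups of cells. Inhibitory neurons make GABA with the decarboxylases of Gad1 (GAD67) and Gad2 (GAD65) and load GABA or glycine with the vesicular transporter of Slc32a1 (VGAT). Slc6a11 (GAT3) takes GABA up into astrocytes, and Slc6a5 (GLYT2) returns glycine to glycinergic neurons. The hypothalamus is rich in GABA neurons and in glutamate neurons of the Slc17a6 type.

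Total counts per library ranged from 7959192 to 37871854. Levels are CPM (the counts of a gene scaled to the same total in each library), or CPM per kb of the longest transcript where genes are compared with each other. The regional labels were checked against marker lists. The 9 hypothalamic markers summed to 859 to 1249 CPM in the hypothalamus and to at most 54.7 CPM in any library of another region. The 7 cerebellar granule cell markers summed to 3527 to 4775 CPM in the cerebellum and to at most 146 CPM elsewhere, with the exception of the hippocampus library of primiparous animal 413 at 435 CPM. The 8 hippocampal markers reached 404 to 654 CPM in the hippocampus and at most 311 CPM elsewhere, in the amygdala. The 8 cortical pyramidal cell markers reached 947 to 1346 CPM in the neocortex. They reached up to 956 CPM in the amygdala, so this list did not fully separate these regions. No list specific to the amygdala was used. The 8 thalamic markers were highest in the cerebellum, at 473 to 574 CPM against 244 to 429 CPM in the hypothalamus. This list is thus not specific to the thalamus. In the neocortex libraries the 6 olfactory bulb markers, all counted in every one of those libraries, ranged from 143 to 603 CPM, against 109 to 252.2 CPM over the other regions. The reproductive states also differ in the numbers of their animals: 7 of 8 primiparous but only 2 of 8 virgin animals carry 3-digit numbers, and the others carry 4-digit numbers. What the number series stands for is not given in the sources used here, so state comparisons were also run within the series and with the series as a covariate.

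The start regions of the genes that pair or oppose each other in the results below were read from RefSeq (build GRCm38.p6), which held at least 1 window, 250 bases before to 50 bases after a transcript start, for 8 of the 8 members. The windows of Gad1 and Gad2 are shown because these genes varied together between animals, and those of Slc17a7 and Slc17a6 because the former was lowest and the latter highest in the hypothalamus. Capitals mark matches, on either strand, to the GC box GGGCGG, to the TATA box TATAAA or to the CCAAT box.
Gad1 (chr2:70561879-70562178, plus strand): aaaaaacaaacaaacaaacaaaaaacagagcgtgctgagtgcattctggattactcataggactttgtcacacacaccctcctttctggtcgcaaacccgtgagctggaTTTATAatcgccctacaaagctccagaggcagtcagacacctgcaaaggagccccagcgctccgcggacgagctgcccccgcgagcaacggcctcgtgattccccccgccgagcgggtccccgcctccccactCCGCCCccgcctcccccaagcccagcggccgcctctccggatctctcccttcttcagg
Gad2 (chr2:22622077-22622376, plus strand): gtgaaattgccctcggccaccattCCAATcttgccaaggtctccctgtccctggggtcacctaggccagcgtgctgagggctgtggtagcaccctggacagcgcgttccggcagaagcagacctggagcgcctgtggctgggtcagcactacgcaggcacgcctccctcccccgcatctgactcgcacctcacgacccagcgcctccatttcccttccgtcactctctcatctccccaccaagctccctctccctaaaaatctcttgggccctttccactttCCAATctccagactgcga
Slc17a7 (chr7:45163671-45163970, plus strand): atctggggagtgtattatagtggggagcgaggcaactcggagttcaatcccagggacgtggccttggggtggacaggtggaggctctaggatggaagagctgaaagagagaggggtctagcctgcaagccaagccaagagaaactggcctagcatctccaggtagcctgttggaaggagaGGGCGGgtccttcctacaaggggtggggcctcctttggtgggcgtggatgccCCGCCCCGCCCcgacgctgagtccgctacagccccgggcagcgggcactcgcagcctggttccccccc
Slc17a6 (chr7:51621580-51621879, plus strand, the first of its windows): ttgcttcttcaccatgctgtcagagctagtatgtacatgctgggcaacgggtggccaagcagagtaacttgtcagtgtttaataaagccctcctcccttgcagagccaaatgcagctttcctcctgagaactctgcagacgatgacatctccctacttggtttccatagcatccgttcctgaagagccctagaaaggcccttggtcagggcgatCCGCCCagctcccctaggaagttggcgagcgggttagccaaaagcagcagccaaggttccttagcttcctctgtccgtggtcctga
The Gad1 window held 1 TATAAA and 1 GGGCGG, whereas the Gad2 window held 2 CCAAT and neither of the others. The Slc17a7 window held 3 GGGCGG, of which 2 share a base, and had a GC content of 63.7%. The first Slc17a6 window held 1 GGGCGG and had a GC content of 53.7%. Among 32851 RefSeq windows of the same length, 35.7% held GGGCGG, 13.6% TATAAA and 37.4% CCAAT, and the median GC content was 52.7%. TGACGTCA, found in 1.79% of all windows, and CAGCTG, found in 16.3%, were also searched on both strands and had no match in the windows of the 8 members.

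Slc17a6 (Entrez 140919, chr7:51622006-51671119, plus strand, GRCm38) was highest in the hypothalamus. Its hypothalamic level ranged from 277 to 435 CPM with a median of 343 CPM over 16 libraries. The amygdala followed at 36.1 to 103 CPM (median 63.2), the neocortex at 18.8 to 39.4 CPM (median 28.8), the cerebellum at 15.7 to 36.02 CPM (median 22.3) and the hippocampus at 10.4 to 39.9 CPM (median 21.5). No hypothalamus library overlapped the libraries of another region. The fitted log2 difference was 2.30 (SE 0.12, edgeR adjusted p = 1.94e-27) for hypothalamus over amygdala, 1.18 (SE 0.12, adjusted p = 2.37e-13) for amygdala over neocortex and 0.40 (SE 0.12, adjusted p = 0.0028) for neocortex over cerebellum. The cerebellum and hippocampus did not differ beyond their spread (adjusted p = 0.855). In the hippocampus the highest library, of virgin animal 4487 at 39.9 CPM, was also the highest for the 8 thalamic markers, with 167 CPM against at most 101 CPM in the other hippocampus libraries. The thalamus is rich in Slc17a6, and the part of its RNA in that value was not tested.

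Slc17a7 (Entrez 72961, chr7:45163949-45176142, plus strand) was lowest where Slc17a6 was highest. It ranged from 1159 to 1446 CPM in the hippocampus, 1109 to 1519 CPM in the neocortex and 851 to 1526 CPM in the amygdala, which overlap. Neither hippocampus over neocortex (log2 difference 0.03, SE 0.16, edgeR adjusted p = 0.863) nor neocortex over amygdala (0.09, SE 0.16, adjusted p = 0.613) passed the test. The cerebellum was lower at 414 to 574 CPM (amygdala over cerebellum 1.35, SE 0.16, adjusted p = 1.24e-11). The hypothalamus was lowest by far at 1.04 to 24.5 CPM with a median of 4.23 CPM, a log2 difference of 6.44 (SE 0.21, adjusted p = 1.59e-40) below the cerebellum. Within the hypothalamus 2 libraries stood out, primiparous animal 425 at 24.5 CPM and virgin animal 4490 at 18.8 CPM. Their cortical pyramidal cell markers summed to 118 and 129 CPM, within the 109 to 133 CPM of the other 14 hypothalamus libraries. Other marker sums were the highest of the 16 libraries in virgin animal 4490: thalamic (429 CPM, next 357 CPM), cerebellar granule cell (108 CPM, next 103 CPM), Purkinje cell (742 CPM, next 697 CPM) and pan-neuronal (3529 CPM, next 3465 CPM). The cerebellum and hippocampus libraries of this animal are not in the count table. Primiparous animal 425 had the highest striatal projection neuron sum (428 CPM, next 407 CPM). The part of these cells in both values was not tested.

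**Figure D1:**
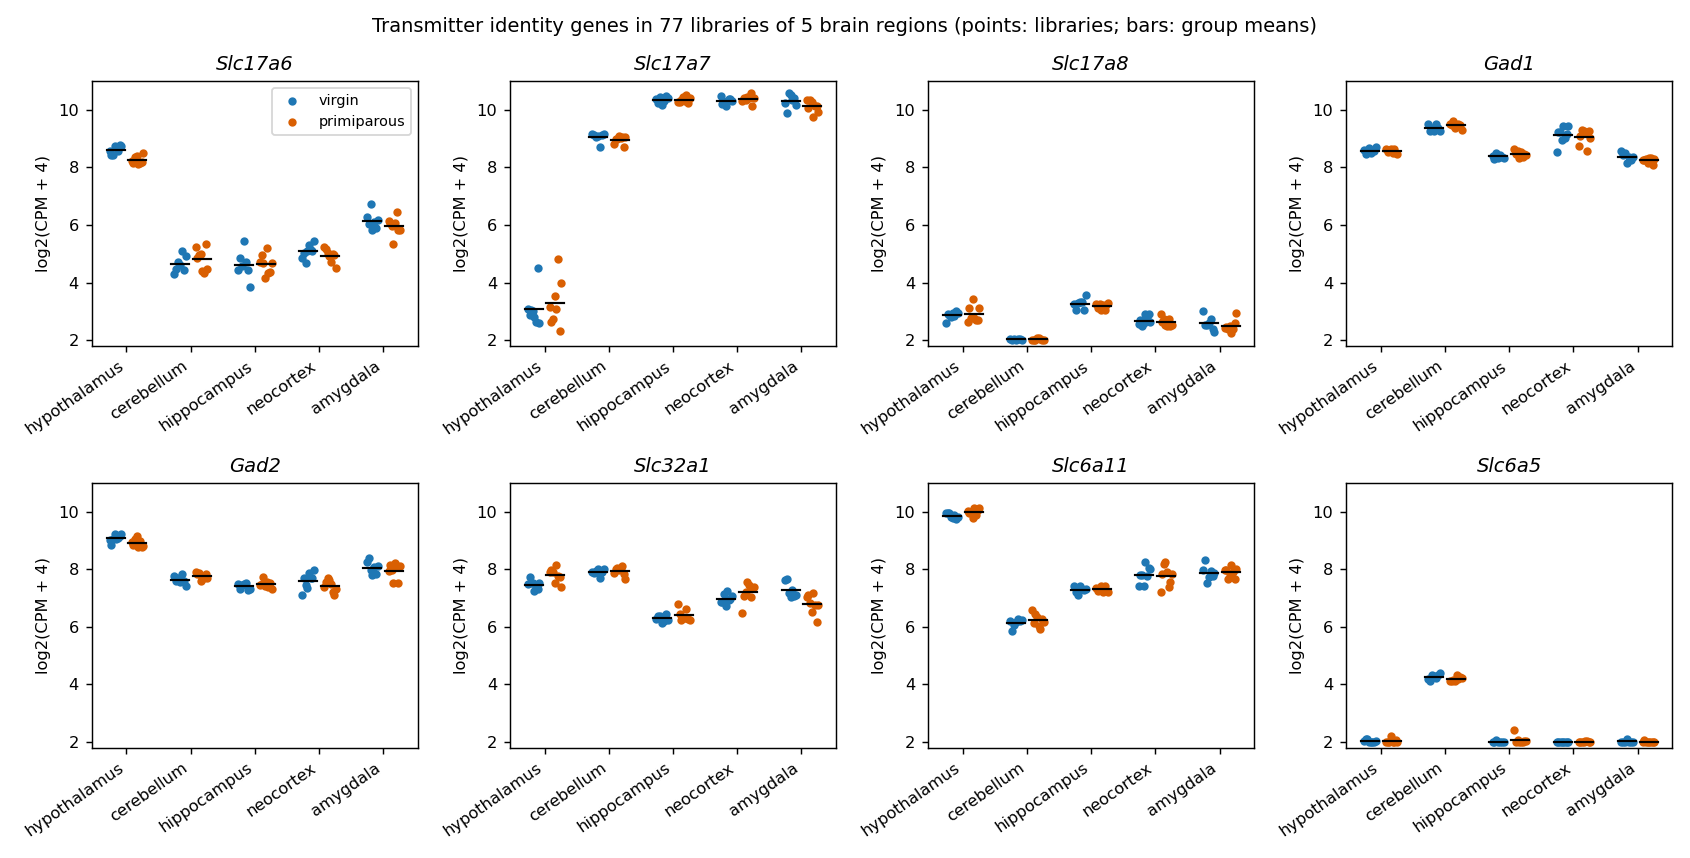
Level of each of the 8 genes, as log2(CPM + 4), in each library of the 5 regions, with virgin libraries in blue, primiparous libraries in orange and black bars at the group means. Slc17a6, Gad2 and Slc6a11 are highest in the hypothalamus, Slc17a7 is lowest there, and Slc6a5 is above the others only in the cerebellum, where it lies between 13.2 and 16.8 CPM.

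Slc17a8 (Entrez 216227, chr10:89574020-89621253, minus strand) had the lowest mean of the vesicular glutamate transporter genes per kb in each of the 5 regions. It ranged from 4.17 to 7.86 CPM in the hippocampus, 2.05 to 6.72 CPM in the hypothalamus, 1.601 to 3.50 CPM in the neocortex and 0.780 to 4.02 CPM in the amygdala. In the cerebellum it had 19 counts in all 15 libraries together, and 6 of these libraries had no count. The hypothalamus exceeded the neocortex by a log2 difference of 0.45 (SE 0.17, edgeR adjusted p = 0.0136), whereas neocortex and amygdala did not differ beyond their spread (adjusted p = 0.124). Slc17a8 passed the filter of at least 5 CPM in 8 libraries through 10 hippocampus libraries and 1 hypothalamus library, so that its difference between the hippocampus and the rest was partly fixed by the filter and is given with no test.

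Per kb of transcript, Slc17a6 averaged 84.2 ± 13.3 CPM per kb (SD, n = 16) in the hypothalamus against 2.06 ± 2.14 for Slc17a7 and 0.776 ± 0.266 for Slc17a8. Slc17a6 thus made up 88.9% to 98.7% of the summed vesicular glutamate transporter RNA there. In the other regions the share of Slc17a6 was small: 2.01% to 6.08% in the cerebellum, 0.566% to 2.49% in the hippocampus, 1.02% to 2.29% in the neocortex and 2.16% to 5.24% in the amygdala. The amygdala, a subcortical region, was therefore on the side of the cortical regions in this measure. The order of these shares is a description of the same levels tested above.

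**Figure D2:**
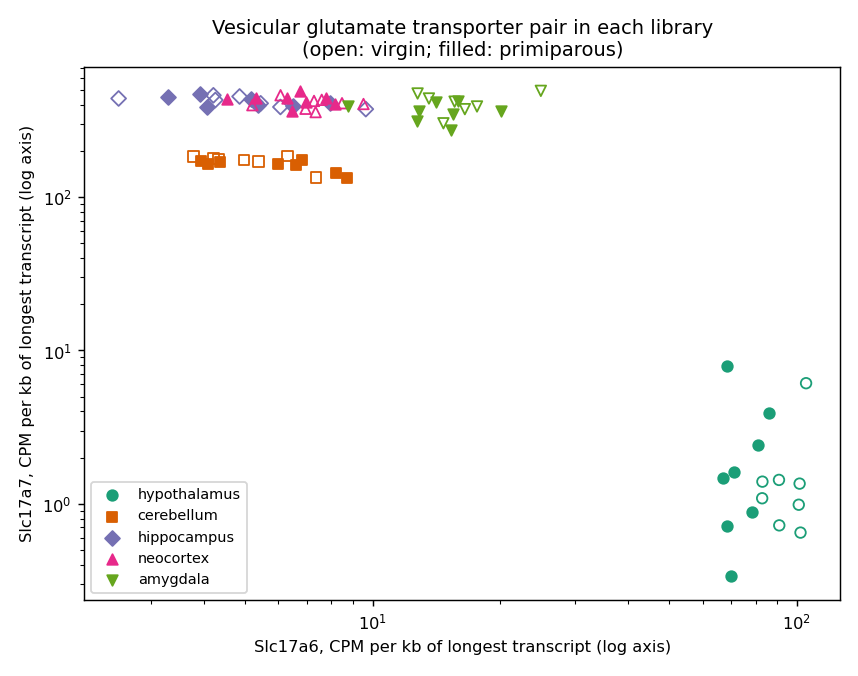
Slc17a7 against Slc17a6 in each of the 77 libraries, in CPM per kb of the longest transcript on log axes, with open symbols for virgin and filled symbols for primiparous animals. The 16 hypothalamus libraries sit at the lower right, with 66.9 to 105 CPM per kb of Slc17a6 and at most 7.96 of Slc17a7, apart from the libraries of the other 4 regions at the upper left.

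The GABA synthesis genes did not share an order of regions. Gad1 (Entrez 14415, chr2:70553072-70602014, plus strand), whose enzyme is spread through the neuron, ranged from 605 to 783 CPM in the cerebellum and from 368 to 689 CPM in the neocortex. It then ranged from 348 to 416 CPM in the hypothalamus, 312 to 399 CPM in the hippocampus and 269 to 376 CPM in the amygdala. Cerebellum over neocortex gave a log2 difference of 0.20 (SE 0.05, edgeR adjusted p = 0.000439) and neocortex over hypothalamus 0.66 (SE 0.05, adjusted p = 6.23e-20), whereas hypothalamus and hippocampus did not differ beyond their spread (adjusted p = 0.971). Hippocampus over amygdala passed at 0.12 (SE 0.05, adjusted p = 0.0396) but not with the animal as a replicate block (adjusted p = 0.0573).

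Gad2 (Entrez 14417, chr2:22622205-22693874, plus strand), whose enzyme is found mainly at nerve terminals, was highest in the hypothalamus at 428 to 599 CPM. No other library reached that range, and the amygdala was next at 180 to 327 CPM (hypothalamus over amygdala 0.85, SE 0.07, edgeR adjusted p = 3.19e-20). The cerebellum ranged from 167 to 233 CPM, the neocortex from 134 to 249 CPM and the hippocampus from 149 to 207 CPM. Amygdala over cerebellum passed (0.45, SE 0.07, adjusted p = 3.4e-09), but the cerebellum and neocortex (adjusted p = 0.344) and the neocortex and hippocampus (adjusted p = 0.411) did not differ beyond their spread. Per kb of transcript, the log2 ratio of Gad1 to Gad2 had a median of 0.24 in the hypothalamus, 0.99 in the amygdala, 1.68 in the hippocampus, 2.25 in the neocortex and 2.41 in the cerebellum. The highest hypothalamus library (0.40) was below the lowest amygdala library (0.73), so this ratio was lowest in the hypothalamus. Which region is nearest to even use of both genes depends on the lengths taken. The longest transcripts have 3601 (Gad1) and 5744 bases (Gad2), but all exons joined have 7639 and 5876 bases. In CPM with no length scaling, Gad1 and Gad2 averaged 377 and 508 in the hypothalamus and 314 and 254 in the amygdala.

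Slc32a1 (Entrez 22348, chr2:158610767-158615748, plus strand) ranged from 198 to 270.0 CPM in the cerebellum, 148 to 281 CPM in the hypothalamus, 85.9 to 182 CPM in the neocortex, 67.5 to 196 CPM in the amygdala and 66.2 to 106 CPM in the hippocampus. Cerebellum over hypothalamus (log2 difference 0.30, SE 0.08, edgeR adjusted p = 0.000371), hypothalamus over neocortex (0.44, SE 0.08, adjusted p = 4.37e-07) and amygdala over hippocampus (0.72, SE 0.08, adjusted p = 1.45e-12) passed the test. Neocortex and amygdala did not differ beyond their spread (adjusted p = 0.833). The exons of Slc32a1 overlap those of the antisense gene Gm14205 over 697 bases. Whether reads were counted by strand is unknown here, so reads of the sense and antisense genes cannot be told apart in that stretch. None of the other 7 members had an exon that overlaps another gene.

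Slc6a11 (Entrez 243616, chr6:114131241-114249952, plus strand) was highest in the hypothalamus at 849 to 1105 CPM, where no library of another region came above 312 CPM. The amygdala ranged from 179 to 312 CPM, the neocortex from 142 to 300.01 CPM, the hippocampus from 134 to 168 CPM and the cerebellum from 54.0 to 90.7 CPM. The log2 difference was 1.91 (SE 0.07, edgeR adjusted p = 2.56e-37) for hypothalamus over amygdala, 0.51 (SE 0.07, adjusted p = 3.73e-09) for neocortex over hippocampus and 1.28 (SE 0.07, adjusted p = 7.35e-27) for hippocampus over cerebellum, whereas amygdala and neocortex did not differ beyond their spread (adjusted p = 0.201). The cerebellum, with the highest Gad1 and Slc32a1, thus had the lowest Slc6a11.

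Slc6a5 (Entrez 104245, chr7:49910146-49963856, plus strand) was a cerebellar gene in these data. It ranged from 13.2 to 16.8 CPM in the 15 cerebellum libraries, and these alone carried it past the filter, so that its difference from the other regions was fixed by the filter and is given with no test. Elsewhere it had 24 counts in all in the hypothalamus, 35 in the hippocampus, 8 in the amygdala and 2 in the neocortex. The neocortex had no count in 14 of 16 libraries, which allows up to 0.0956 to 0.346 CPM in a library (3 counts of its total). Of the 35 hippocampal counts, 26 came from the library of primiparous animal 413 (1.27 CPM), the library with raised cerebellar granule cell markers, and the next library held 0.217 CPM. These limits cover counting error only.

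Most members differed between most regions, as did most genes. Slc6a5 and Slc17a8, which reached 5 CPM in no library of at least 1 region and passed the filter through another, are left out of these counts. Of the other 6 members, 6 passed between hypothalamus and cerebellum (81.1% of all 13016 genes tested), 5 between hypothalamus and hippocampus (73%, all but Gad1), 6 between hypothalamus and neocortex (77.7%) and 6 between hypothalamus and amygdala (71%). Further, 4 passed between cerebellum and hippocampus (78.7%, all but Slc17a6 and Gad2), 5 between cerebellum and neocortex (79.9%, all but Gad2), 6 between cerebellum and amygdala (80.2%), 4 between hippocampus and neocortex (67%, all but Slc17a7 and Gad2) and 5 between hippocampus and amygdala (58.7%, all but Slc17a7). Between neocortex and amygdala 3 passed (62.5%), Slc17a6, Gad1 and Gad2. The shares of members were not tested against those of all genes.

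The study asked whether reproductive experience leaves lasting expression differences. In the hypothalamus 3 of the 8 members passed the test between states, Slc17a6 and Gad2 lower and Slc32a1 higher in P than in V libraries. The test also called 22.6% of all 13016 genes there (10.8% higher and 11.8% lower), so that passing it was not particular to these genes. No member had states without overlap in any region, and the share of all genes without overlap was 0.884% for the hypothalamus, 0.323% for the cerebellum, 0.146% for the amygdala, 0.0845% for the hippocampus and 0.0154% for the neocortex. In bulk tissue, fewer cells of a type and less RNA per cell cannot be told apart.

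Slc17a6, the main glutamate transporter gene of the hypothalamus, ranged from 343 to 435 CPM with a median of 397 CPM in V libraries and from 277 to 356 CPM with a median of 291 CPM in P libraries. All 8 P libraries lay below the V mean and 7 lay below the lowest V library, but the groups overlapped through primiparous animal 4493, whose 356 CPM was the highest P value and who is the only P animal of the 4-digit series. The log2 fold change of P over V was −0.38 (SE 0.06, edgeR adjusted p = 0.00098) and stayed called when each of the 16 libraries was left out (−0.42 to −0.36). With the number series as a covariate it was −0.25 (SE 0.07, adjusted p = 0.147), within the 3-digit series −0.28 (adjusted p = 0.999) and within the 4-digit series −0.20. The 4-digit series has 1 P library in each region, so its differences between states are given as values with no test. With a correction for gene length and GC content it was −0.20 (SE 0.04, adjusted p = 0.00763). In 1 fit of all 10 groups of region and state, which shares its spread over regions, it was −0.38 (SE 0.16, adjusted p = 0.0866).

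Gad2 ranged from 448 to 599 CPM with a median of 528 CPM in V libraries and from 428 to 563 CPM with a median of 467 CPM in P libraries. The groups overlapped broadly, with 3 P libraries below the lowest V library and 3 V libraries above the highest P library. The log2 fold change was −0.19 (SE 0.06, edgeR adjusted p = 0.0342), and it was called in 7 of the 16 fits that left a library out. The call was lost without primiparous animal 413, 414, 421, 427 or 4493 or virgin animal 4487, 4489, 4490 or 4491 (adjusted p of at most 0.0802). It was −0.12 (adjusted p = 0.503) with the series as a covariate, −0.01 (adjusted p = 0.999) within the 3-digit series and −0.34 within the 4-digit series. The length and GC correction left −0.04 (SE 0.04, adjusted p = 0.686). Its companion Gad1 ranged from 348 to 416 CPM in V and 349 to 394 CPM in P libraries and did not differ beyond the spread (log2 fold change −0.05, SE 0.04, adjusted p = 0.428).

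Slc32a1 ranged from 148 to 205 CPM with a median of 177 CPM in V libraries and from 162 to 281 CPM with a median of 222 CPM in P libraries. Of the 8 P libraries, 6 lay above the highest V library, while primiparous animals 4493 (162 CPM) and 418 (177 CPM) lay within the V range. The log2 fold change was 0.32 (SE 0.09, edgeR adjusted p = 0.0126), called in all 16 fits that left a library out (0.26 to 0.37). Within the 3-digit series it was 0.24 (SE 0.13, adjusted p = 0.999), within the 4-digit series −0.070, and with the series as a covariate 0.14 (SE 0.10, adjusted p = 0.519). After the length and GC correction it was 0.12 (SE 0.06, adjusted p = 0.277). Slc32a1 has a GC content of 61.9%, higher than 98.0% of the genes tested, and Slc17a6, which moved the other way, has 42.9%, higher than 15.03% of them. Beyond these values within the series, reproductive state and number series cannot be told apart in this region.

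The other members were not called in the hypothalamus. Slc6a11 ranged from 849 to 993 CPM in V and from 873 to 1105 CPM in P libraries, with 6 of 8 P libraries above the highest V library. Its log2 fold change was 0.11 (SE 0.05, edgeR adjusted p = 0.0967), not called. With the series as a covariate it was 0.10 (SE 0.06, adjusted p = 0.444), within the 3-digit series 0.0095 (SE 0.09, adjusted p = 0.999) and within the 4-digit series 0.26. Without primiparous animal 418 it was 0.14 (adjusted p = 0.0225), and with the length and GC correction 0.02 (adjusted p = 0.869). Slc17a7 gave 0.43 (SE 0.62, adjusted p = 0.647), with P libraries from 1.04 to 24.5 CPM on both sides of V libraries from 1.99 to 18.8 CPM. This value rests on 2 libraries, since it was −0.064 without primiparous animal 425 and 1.08 without virgin animal 4490 (adjusted p = 0.943 and 0.17). Slc17a8 gave 0.13 (SE 0.23, adjusted p = 0.704). Gad1, Slc17a7 and Slc17a8 were not called with the series as a covariate or within the 3-digit series (adjusted p from 0.549 to 0.999). The sums of the 8 thalamic markers (V 259 to 429 CPM, P 244 to 357 CPM) and of the 6 pan-neuronal markers (V 3152 to 3529 CPM, P 2972 to 3348 CPM) overlapped between states. Of the pan-neuronal genes Rbfox3 was called higher and Snap25 and Syt1 lower in P libraries. The 8 cortical interneuron markers are not specific to cortex, with median sums of 1072 CPM in the cerebellum and 854 CPM in the neocortex. In the hypothalamus Sst and Npy of this list were called higher in P libraries. The list sum ranged from 240 to 286 CPM (median 259) in V and from 278 to 388 CPM (median 323) in P libraries. That of the 8 hippocampal markers ranged from 130 to 168 CPM (median 138) in V and from 138 to 189 CPM (median 170) in P libraries, with C1ql2 and Wfs1 called higher. Both sums overlapped between states, with the higher median in P libraries. Single markers were also called on 4 other lists whose sums overlapped between states: Pmch and Sim1 lower on the hypothalamus list (V 919 to 1073 CPM, P 859 to 1249 CPM), Pcp2 higher and Calb1 lower on the Purkinje list (V 624 to 742 CPM, P 587 to 686 CPM), Etv1 lower on the granule cell list (V 69.5 to 108 CPM, P 64.9 to 103 CPM) and Synpr lower on the olfactory bulb list (V 109 to 152 CPM, P 110.1 to 129 CPM). Of the choroid plexus markers Ttr was called higher (sum V 35.5 to 48.8 CPM, P 34.9 to 62.7 CPM). No thalamic, pyramidal cell or striatal marker was called. The part of these cell markers in the differences above was not tested.

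**Figure D3:**
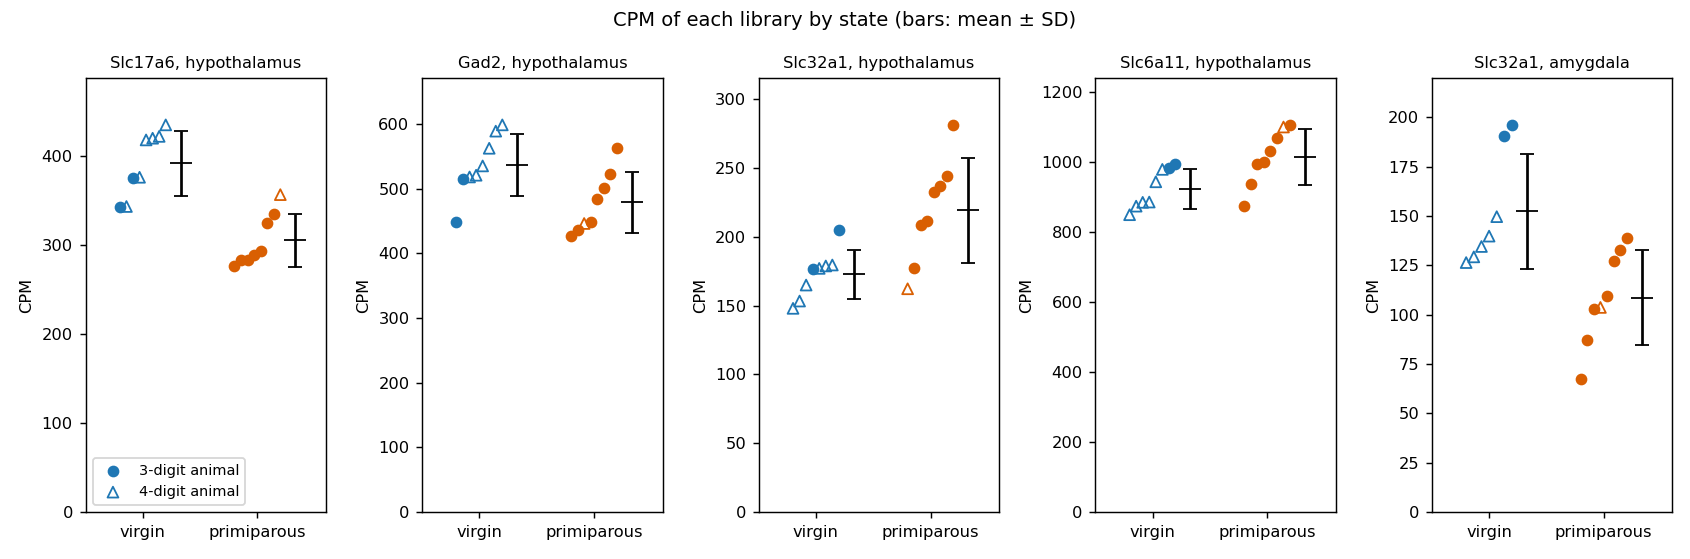
CPM of each library by state for Slc17a6, Gad2, Slc32a1 and Slc6a11 in the hypothalamus and for Slc32a1 in the amygdala, with filled circles for animals with 3-digit numbers, open triangles for those with 4-digit numbers and bars for the mean ± SD. Slc17a6 averages 391 ± 36.9 CPM in V and 305 ± 29.5 CPM in P libraries, and Slc32a1 averages 173 ± 17.8 CPM in V and 219 ± 38.1 CPM in P libraries in the hypothalamus and 152 ± 29.1 and 109 ± 24.1 CPM in the amygdala.

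In the amygdala Slc32a1 pointed the other way. V libraries ranged from 126 to 196 CPM with a median of 140 CPM and P libraries from 67.5 to 139 CPM with a median of 106 CPM. All 8 P libraries lay below the V mean and 5 of them below the lowest V library, so the groups overlapped in part. The log2 fold change was −0.48 (SE 0.14, edgeR unadjusted p = 0.00407, adjusted p = 0.234), not called in the fit of this region. It was called in 1 fit of all 10 groups (−0.48, SE 0.11, adjusted p = 0.0244). It was −0.82 (SE 0.21, adjusted p = 0.192) within the 3-digit series, −0.35 within the 4-digit series and −0.65 (SE 0.15, adjusted p = 0.0789) with the series as a covariate. The amygdala libraries of virgin animals 405 and 409, which had the highest Slc32a1 (191 and 196 CPM), also had the highest sums of 10 striatal projection neuron markers (805 and 897 CPM, against 423 to 686 CPM in the other 13 libraries). These 2 are the only V animals of the 3-digit series, so the difference within that series rests on them. Striatal projection neurons use GABA. The sum of the 8 cortical interneuron markers ranged from 702 to 781 CPM (median 734) in V and from 601 to 780 CPM (median 662) in P libraries. That of the 8 astrocyte markers ranged from 4507 to 7401 CPM (median 5622) in V and from 5598 to 7226 CPM (median 6435) in P libraries. The part of these cells in the difference was not tested.

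In the fits of each region, no member was called between states outside the hypothalamus. In the cerebellum 0 of 8 members passed, where edgeR called 0.707% of all genes (0.599% higher and 0.108% lower). Gad2 alone had an unadjusted p under 0.05 there (log2 fold change 0.14, SE 0.06, edgeR adjusted p = 0.237). In the hippocampus, neocortex and amygdala these edgeR fits called no gene (0%), with 961, 1276 and 1544 genes at an unadjusted p under 0.05. DESeq2 called 12, 4 and 95 genes there and none of the members, and limma-voom called none. The edgeR fit of all 10 groups called 6, 6 and 142 of the 13016 genes there, Slc32a1 in the amygdala among them. In the amygdala edgeR also called 14 genes with the series as a covariate and 36 within the 3-digit series, none of them members. Slc32a1 in the neocortex had P libraries from 85.9 to 182 CPM and V libraries from 101 to 147 CPM, with 7 of 8 P libraries above the V mean (log2 fold change 0.29, SE 0.12, unadjusted p = 0.0243, adjusted p = 0.488). In the hippocampus Gad1 (0.11, SE 0.05, adjusted p = 0.661) had an unadjusted p of 0.0377. So had Slc6a5 at 0.0419, a value that rests on the library of primiparous animal 413.

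Whether the hypothalamus differed from other regions in its response was tested as an interaction. Against the cerebellum 2 of 8 members passed (15.5% of all genes): the P over V effect was lower in the hypothalamus by −0.64 for Slc17a6 (SE 0.20, edgeR adjusted p = 0.0298) and by −0.33 for Gad2 (SE 0.09, adjusted p = 0.0161). Against the hippocampus 1 of 8 passed (17.2% of all genes), Gad2 at −0.29 (SE 0.09, adjusted p = 0.0273). Against the amygdala 1 of 8 passed (18.2% of all genes), Slc32a1 at 0.81 (SE 0.18, adjusted p = 0.00347). Against the neocortex none passed (0% of all genes by edgeR and by limma-voom, with 336 genes at an unadjusted p under 0.05 in edgeR). The difference of Slc32a1 between hypothalamus and amygdala was the only one that held with the number series as a covariate (0.79, SE 0.20, adjusted p = 0.0288). With the animal as a replicate block and the length and GC correction it was 0.46 (SE 0.12, adjusted p = 0.0665). In the amygdala the only V animals of the 3-digit series were the 2 with the highest striatal marker sums. For Slc17a6 and Gad2 the series covariate left differences of −0.54 (adjusted p = 0.476), −0.21 (adjusted p = 0.518) and −0.16 (adjusted p = 0.585). These comparisons share the hypothalamus libraries.

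**Figure D4:**
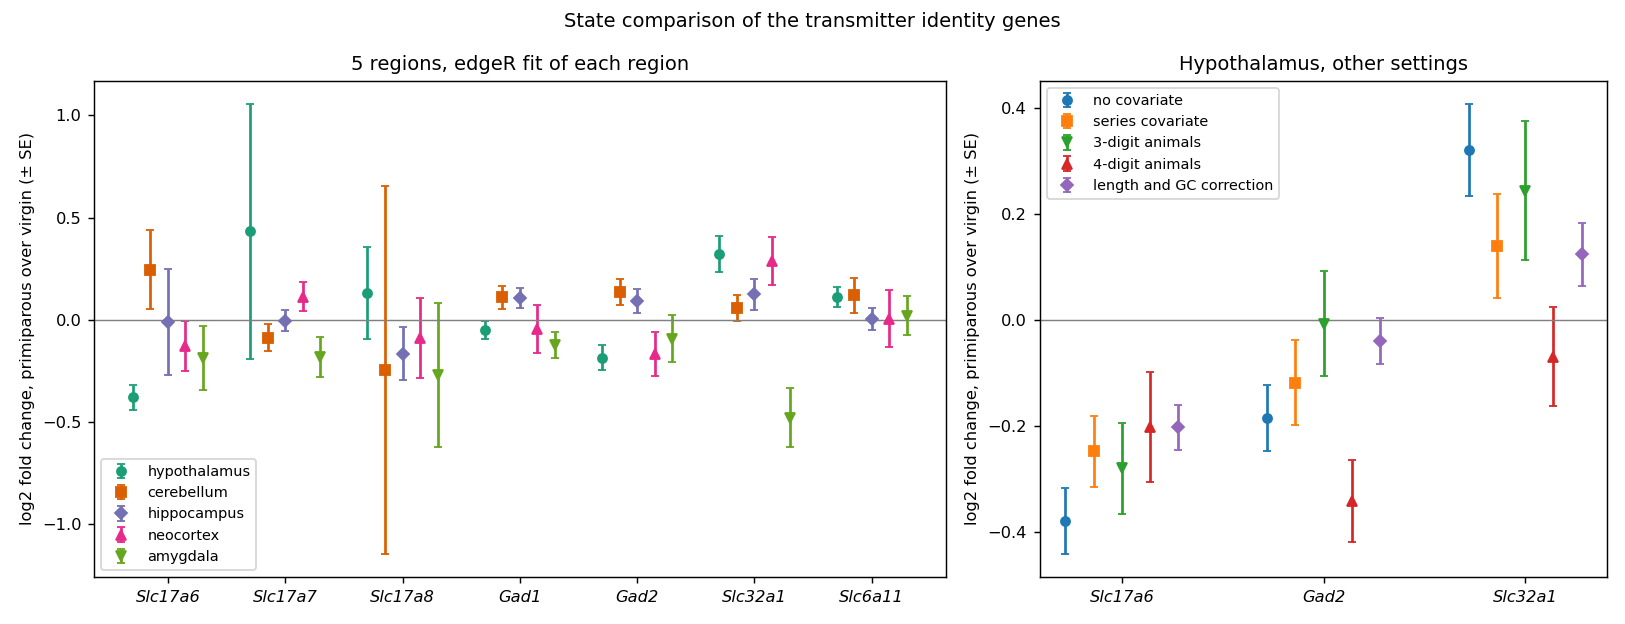
Left, log2 fold change of P over V (± SE) of 7 members in each region, from the edgeR fit of that region, and right, the 3 genes called in the hypothalamus under other settings. Slc6a5 is left out since most libraries outside the cerebellum held at most 3 counts of it. Slc32a1 is at 0.32 in the hypothalamus and −0.48 in the amygdala, and in the right panel Slc17a6 stays below 0 in every setting while Slc32a1 reaches −0.070 among 4-digit animals.

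Ratios between members do not depend on how libraries are scaled, and 25 were tested, 5 in each region, by two-sided exact permutation with Benjamini-Hochberg adjustment. They can still depend on library trends with gene length and GC content, for which these ratios were not corrected. The GC content is 61.9% for Slc32a1, 47.3% for Gad1 and 44.1% for Gad2. That correction made the hypothalamic fold changes of Slc17a6, Gad2 and Slc32a1 above smaller. In the hypothalamus the log2 ratio of summed Gad1 and Gad2 to the summed vesicular glutamate transporters, all per kb, averaged 1.04 ± 0.11 (SD, n = 8) in V and 1.28 ± 0.15 (SD, n = 8) in P libraries (exact permutation adjusted p = 0.0447). The log2 ratio of Gad1 to Gad2 averaged 0.18 ± 0.07 in V and 0.32 ± 0.09 in P libraries (exact permutation adjusted p = 0.0486). The log2 ratio of Slc32a1 to summed Gad1 and Gad2 averaged −1.69 ± 0.20 in V and −1.27 ± 0.29 in P libraries (exact permutation adjusted p = 0.0466). The groups overlapped in each of these, and the calls were lost in most fits that left out a hypothalamus library, holding in 4, 2 and 3 of 16. They held in each case without primiparous animal 418 or virgin animal 409. The first and the third also held without primiparous animal 4493, and the first without virgin animal 4486.

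In the amygdala the ratio of Slc32a1 to Gad1 and Gad2 moved down, from −1.35 ± 0.15 (SD, n = 7) in V to −1.73 ± 0.24 (SD, n = 8) in P libraries (exact permutation adjusted p = 0.0447), and it held in 15 of 15 fits without 1 amygdala library (adjusted p of at most 0.0486). Within the number series this difference was −0.56 (3-digit, 2 V against 7 P) and −0.41 (4-digit, 5 V against 1 P). In the hypothalamus the difference of the same ratio was 0.22 and 0.18 within the series. That of Gad1 to Gad2 was 0.03 and 0.17, and that of the GABA to glutamate genes 0.27 and −0.09, the latter of opposite sign in the 4-digit series. The neocortex ratio of Slc32a1 to Gad1 and Gad2 was −2.11 ± 0.22 in V and −1.79 ± 0.25 in P libraries (exact permutation adjusted p = 0.0979), and it passed without primiparous animal 413 or virgin animal 405 (exact permutation adjusted p = 0.035). The share of Slc17a6 in the vesicular glutamate transporters did not pass in any region (exact permutation adjusted p from 0.439 to 0.978).

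Between animals of the same state, 10 of 25 pairs of members and regions were correlated at an adjusted permutation p under 0.05. The 2 GABA synthesis genes varied together: Gad1 against Gad2 gave a Pearson r of 0.85 in the hypothalamus (Spearman 0.85, n = 16, permutation adjusted p = 0.0015), 0.79 in the cerebellum (Spearman 0.75, n = 15, permutation adjusted p = 0.0065), 0.76 in the amygdala (Spearman 0.68, n = 15, permutation adjusted p = 0.0065) and 0.71 in the neocortex (Spearman 0.71, n = 16, permutation adjusted p = 0.0102). In the hippocampus r was 0.59 (Spearman 0.59, n = 15, permutation adjusted p = 0.0703). Without the 2 libraries farthest from the median, r ranged from 0.52 in the neocortex to 0.79 in the cerebellum, and within either number series from 0.62 to 0.95. Gad1 against Slc32a1 was close to 0 in the hypothalamus (r = 0.01, Spearman 0.07, permutation adjusted p = 0.971), where it was −0.55 within the 3-digit and 0.73 within the 4-digit series. It was 0.66 in the neocortex (Spearman 0.74, permutation adjusted p = 0.0109) and 0.71 in the amygdala (Spearman 0.69, permutation adjusted p = 0.00836). The pair did not pass in the cerebellum (r = 0.09, permutation adjusted p = 0.847) or hippocampus (r = 0.27, permutation adjusted p = 0.571). Without the 2 farthest libraries r was −0.45 and −0.34 there.

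Slc17a6 and Slc17a7 varied in opposite directions in the cerebellum (r = −0.70, Spearman −0.52, n = 15, permutation adjusted p = 0.00836 and 0.133) and in the hippocampus (r = −0.65, Spearman −0.70, n = 15, permutation adjusted p = 0.0324 and 0.0211), with −0.61 and −0.55 without the 2 farthest libraries. In the hypothalamus, neocortex and amygdala r was 0.26, −0.14 and 0.05. Slc6a11 varied with Slc32a1 in the neocortex (r = 0.75, Spearman 0.76, n = 16, permutation adjusted p = 0.0065) and amygdala (r = 0.72, Spearman 0.73, n = 15, permutation adjusted p = 0.00836) but not in the cerebellum (r = −0.21), hippocampus (0.05) or hypothalamus (0.39, with 0.76 within the 3-digit and −0.26 within the 4-digit series). Slc17a7 against Gad1 passed in no region (r from −0.43 to 0.11).

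In the neocortex the levels of Gad1, Slc32a1 and Slc6a11 moved with the 6 olfactory bulb markers Cdhr1, Doc2g, Eomes, Sp8, Tshz1 and Synpr, which summed to 177 to 600 CPM in V and 143 to 603 CPM in P libraries. The 3 libraries with the lowest sums (virgin animal 405 and primiparous animals 413 and 425) had the lowest Gad1, at 368, 420 and 378 CPM. The 2 libraries with the highest Gad1, of virgin animals 4491 and 4488 at 689 and 687 CPM, had sums of 584 and 600 CPM. Over the 16 libraries, after subtracting state means, Gad1 correlated with the sum at r = 0.96 (Spearman 0.94, permutation adjusted p = 0.00014, which is the smallest that the permutations can give), 0.93 without the 2 farthest libraries, and 0.98 and 0.97 within the 3-digit and 4-digit series. Slc6a11 (r = 0.80, Spearman 0.74, permutation adjusted p = 0.00371) and Slc32a1 (r = 0.75, Spearman 0.81, permutation adjusted p = 0.00653) followed. Gad2 did not pass (r = 0.57, Spearman 0.54, permutation adjusted p = 0.0603), with 0.30 without the 2 farthest libraries, and Slc17a7 −0.41 (Spearman −0.36, permutation adjusted p = 0.316). This family of 14 tests, which also took the striatal list in the amygdala, where no member passed, was chosen after the values were seen. The part of olfactory bulb RNA in the neocortical levels was not tested. The neocortical place of Gad1, Slc32a1 and Slc6a11 in the orders above is to be read with this limit. So are the neocortical correlations above of Gad1 with Gad2 and Slc32a1 and of Slc6a11 with Slc32a1.

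**Figure D5:**
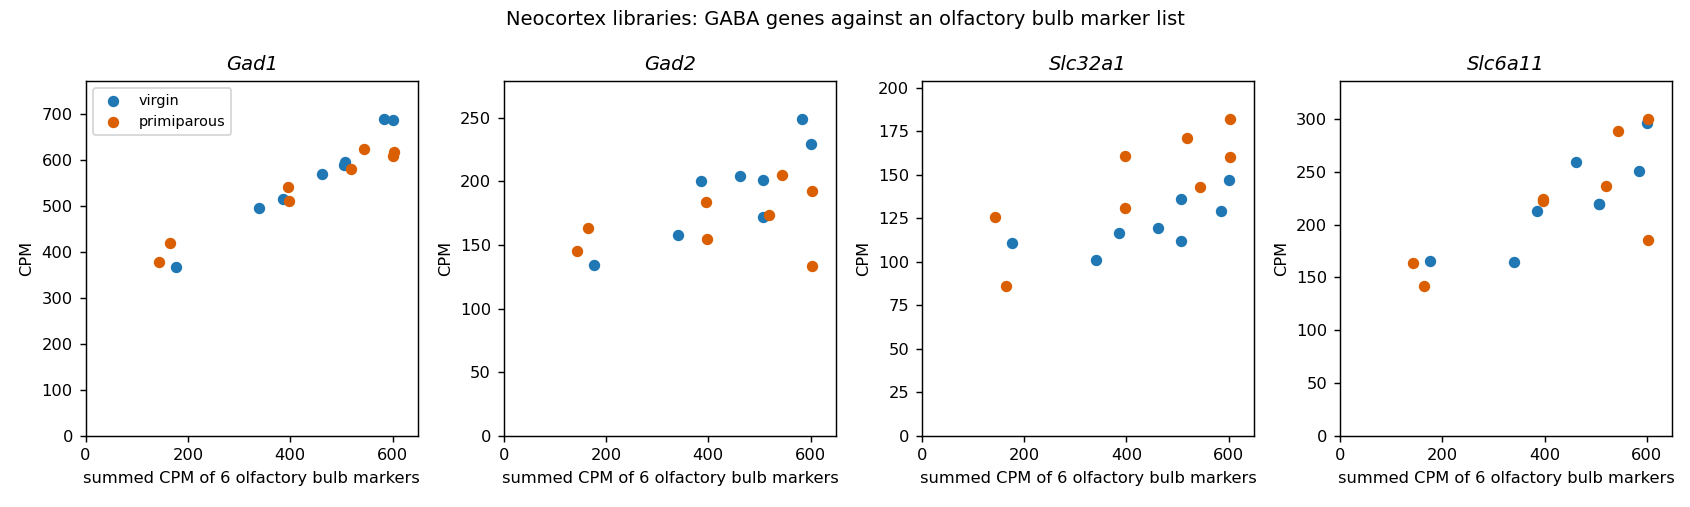
CPM of Gad1, Gad2, Slc32a1 and Slc6a11 in the 16 neocortex libraries against the summed CPM of 6 olfactory bulb markers in the same library, with virgin libraries in blue and primiparous libraries in orange. Gad1 rises from 368 CPM among the 3 libraries with the lowest sums to 689 CPM.

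Over all 77 libraries, the genes whose log2(CPM + 4) followed each member most closely were mainly set by region. They were Gpr165, Irs4 and Gpx3 for Slc17a6 (Pearson r 0.97 to 0.98), Itpka, Dlgap1 and Ccsap for Slc17a7 (0.97 to 0.99) and Cdh11, Nrp1 and Trpc4 for Slc17a8 (0.89 to 0.92). For the inhibitory genes they were Eomes, Shisa8 and Rab37 for Gad1 (0.93 to 0.94), Grb10, Peg10 and Hs6st2 for Gad2 (0.95 to 0.97), Tmem163, Clstn3 and Ltbp3 for Slc32a1 (0.91), A730017C20Rik, Scg2 and Resp18 for Slc6a11 (0.97) and Crtam, Pkp3 and Skor2 for Slc6a5 (1.00). After subtracting the mean of each region and state, the closest were Pbx3, Sp8 and Fstl5 for Gad1 (0.79 to 0.81), Podxl2, Gaa and Mospd3 for Slc32a1 (0.69 to 0.76), Sall1, Fam196b and Slc6a9 for Slc6a11 (0.73 to 0.77), Klhl13, Grb10 and Shisa9 for Gad2 (0.69) and Vwc2l and Epb41l3 for Slc17a6 (0.61 to 0.68). For Slc17a7, Slc17a8 and Slc6a5 they were Ptk2b, Rtn4rl1 and Neurod2 (0.46 to 0.49), Kdm1b, Dusp16 and Poc5 (0.47 to 0.51) and Fat2, Gabra6 and Ppp1r17 (0.65 to 0.66). Eomes and Sp8 are on the olfactory bulb list. The libraries share animals, so these values are descriptions with no test.

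Other genes of the same pathways were described from lists. In the hypothalamus 2 of 14 tested genes for glutamate supply and uptake were called, both lower in P libraries, beside 22.6% of all genes called there (11.8% lower): the astrocytic glutamate transporters Slc1a2 (1736 ± 92.6 CPM in V and 1574 ± 140.5 CPM in P libraries, SD, n = 8 each, log2 fold change −0.16, SE 0.05, edgeR adjusted p = 0.0231) and Slc1a3 (851 ± 33.1 against 758 ± 76.6 CPM, −0.19, SE 0.05, adjusted p = 0.0152). Both are also on the list of 8 astrocyte markers, whose sum overlapped between states (V 3447 to 4074 CPM, P 3189 to 4363 CPM), and the part of astrocyte numbers was not tested. Of 8 genes listed for GABA breakdown and uptake 1 was called, Maob, lower in P libraries (66.1 ± 3.9002 against 57.8 ± 4.22 CPM, −0.22, SE 0.05, edgeR adjusted p = 0.00761). Its product is a mitochondrial amine oxidase that does not itself break down or take up GABA, so this call is no measure of GABA breakdown. Of 10 genes for glycine handling and receptors 2 were called, the receptor subunits Glrb (262 ± 26.1 against 205 ± 20.7 CPM, −0.38, SE 0.07, adjusted p = 0.0014) and Glra2 (49.7 ± 5.89 against 40.6 ± 7.64 CPM, −0.31, SE 0.10, adjusted p = 0.027), both lower in P libraries. Of 5 tested genes of other transmitters none was called. With the number series as a covariate only 3 of all 13016 genes were called in the hypothalamus, and with the length and GC correction 385. The median log2 fold changes of the lists were −0.04, −0.04, 0.07 and −0.13, beside 0.01 over all genes tested. In the fits of the other 4 regions none of these genes was called.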

How the data were processed

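RNA from 5 brain regions of 16 females (the entire hypothalamus and the left side of the others) was sequenced by the authors (polyA mRNA, single-end reads of 100 bases), aligned with Hisat2 to mm10 and counted with featureCounts, which gave the deposited table of raw counts per gene for 77 of 80 libraries. The other 3 libraries, all virgin, were not analysed here: the cerebellum and hippocampus of animal 4490 and the amygdala of animal 4487. Per the study's methods, 1 sample from each of these regions was left out as an outlier in a principal component analysis. The strand setting is not given in the sources used here. A second deposited table holds log2 values of 13016 genes, which equal log2(count/size factor + 4) within 5e-05 of the counts. Each library is 1 animal of 1 region, and the animal numbers in the labels pair libraries across regions. Deviations from group means correlated at a median of 0.0119 to 0.0770 between regions of the same animal and of −0.0109 to −0.00268 between different animals. The former are small, and subtracting group means by itself pushes the latter below 0. These values are therefore only a weak check of the pairing.

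The tests took the genes that reached 5 CPM in 8 libraries or more (13016, the same genes as in the deposited log2 table). State comparisons used edgeR 4.0.16 (TMM, robust quasi-likelihood F-test) on the counts of each region, region contrasts 1 fit of all 10 groups, and interactions a fit of both regions, with Benjamini-Hochberg adjustment over all genes and a threshold of 0.05. The study's own test, limma-voom (limma 3.58.1), DESeq2 1.42.0, its size factors, no filter, the number series as covariate or split, a spline in gene length and GC content (12632 genes with values, 97.0%), the animal as block and the loss of each library were alternatives. Fits were tested on simulated data. The 4-digit series, with 1 primiparous library, gave values with no test. Ratios were tested by exact permutation and correlations by 100000 permutations within state. Lengths and positions came from GENCODE (GRCm38). R 4.3.3, Python 3.11.15, scipy 1.17.1 and matplotlib 3.10.9 were used.

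The members, gene lists and tests were chosen with earlier results of these data known. Genes are named as members, as the 3 highest and 3 lowest called genes of each pathway list, as the 3 genes most like a member, or as markers beside a result. Some genes these rules would name are not reported here.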

Additional observations from a re-analysis of the deposited data

Results flagged for a closer look

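Libraries apart from their group were sought by the gap to the nearest neighbour as a share of the group's range. Of the 79 groups of a gene, region and state tested, 7 held such a library. Chance gives about 1 in 20 for values spread continuously, which does not hold for the 5 groups of Slc6a5 at or near no counts: where a single library has a count, the gap is 1 by construction. Slc17a7 of virgin animal 4490 in the hypothalamus was 18.8 CPM against at most 4.40 CPM in the other virgin libraries (gap 0.748 of the range). Slc17a7 of virgin animal 4488 in the cerebellum was 416 CPM against at least 528 CPM in the others (0.741). The other 5 are those of Slc6a5. In the hippocampus primiparous animal 413 had 1.27 CPM against at most 0.217 CPM (0.808), and virgin animal 4486 had 0.139 CPM where the others had 0 (gap 1). In the hypothalamus primiparous animal 418 had 0.605 CPM against at most 0.160 CPM (0.721). In the amygdala primiparous animal 414 (0.205 CPM) and virgin animal 4488 (0.274 CPM) were the only libraries of their groups with a count (gap 1 in each).

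In 4 cases the P over V fold change differed between the hypothalamus and another region by the edgeR interaction test. The log2 effect in the hypothalamus minus that in the cerebellum was −0.64 for Slc17a6 and −0.33 for Gad2, and that minus the hippocampus −0.29 for Gad2. Minus the amygdala it was 0.81 for Slc32a1, where 6 of 8 primiparous hypothalamus libraries lay above the highest virgin library and 5 of 8 primiparous amygdala libraries below the lowest virgin library.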

How the results depend on the processing

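In the hypothalamus 3 members passed between states by edgeR, limma-voom, DESeq2, with DESeq2 size factors and with no filter. With a covariate for the series of animal numbers it was 0, within the 3-digit series 0, with the length and GC correction 1 and in 1 fit of all 10 groups 1. Without 1 library in turn it ranged from 2 to 4. Within the 4-digit series, which has 1 P library and is given with no test, Slc32a1 turned to −0.070. Over all genes the 2939 called in the hypothalamus became 3 with the series covariate, 1 within the 3-digit series and 385 with the length and GC correction, and the 92 called in the cerebellum became 505 by DESeq2, 395 with the length and GC correction, 0 with the series covariate and 6 to 903 without 1 library in turn. In the amygdala the count of members was 0 and became 1 in the fit of 10 groups. With the animal as a replicate block the interactions kept their counts of 2 (cerebellum), 1 (hippocampus) and 1 (amygdala), while the 2243 genes called against the hippocampus became 1449. With the block and the length and GC correction these became 0, 0 and 0, and with the series covariate 0, 0 and 1. Among the region contrasts of the 6 members counted in the report, the block lost only Gad1 (hippocampus over amygdala, adjusted p = 0.0573). Of the 25 ratios 4 passed, and 0 to 5 without 1 library in turn. Over all alternatives, 1418 fold changes of members kept their side of the threshold, 33 lost and 4 gained a call and 1 reversed; 102 of the 1418 changed sign without a call. These tallies include the 4-digit fits, which assume that the lone P library varies like the others, and the fold changes of Slc6a5 and Slc17a8. The causes were not tested. Without the hippocampus library of primiparous animal 413, an alternative chosen after seeing the data, 5, 4, 4 and 4 of these 6 passed between the hippocampus and the hypothalamus, cerebellum, neocortex and amygdala, where Gad1 lost its call in the last. Depth limits Slc6a5 outside the cerebellum and Slc17a8 in the cerebellum, where most libraries hold at most 3 counts.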
